A study of Mus musculus with 18 samples.

Results

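The 10 genes described here are the Wnt ligand Wnt5a, the secreted Wnt modulators Sfrp1, Sfrp2, Dkk3 and Cthrc1, the co-receptors Lrp5 and Lrp6, the cytoplasmic proteins encoded by Ctnnb1 and Axin2, and the transcription factor gene Tcf7l2. They were picked by gene symbol out of 19862 genes, with knockout and control levels from these same libraries already known. Knockout against control values of the 10 are therefore given as a description, without a test. All 10 passed the filter on low values, which asked for a value above 0 in at least 3 of the 18 libraries.

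Prmt1 encodes the main enzyme that places asymmetric dimethyl marks on arginine in mammalian proteins. The cells are a murine osteosarcoma line of mixed strain background, labelled postnatal day 299, from tumours that arose in mice with conditional deletion of p53 and Rb, and they carry floxed Prmt1 alleles and a stably expressed CreER, a Cre recombinase that tamoxifen switches on. Knockout cells, labelled Prmt1-/-, received 4-hydroxytamoxifen. Control cells, labelled wild type although they carry the same floxed alleles and CreER, received ethanol. Cells were treated with cycloheximide, which holds ribosomes on their messages, and the cleared lysate was kept as Total RNA or run on a sucrose gradient. Gradient fractions were then combined as Light RNA, from messages with fewer than 3 ribosomes, and Heavy RNA, from messages with more than 3. Each of the 6 groups holds 3 libraries, numbered 1 to 3. No library comes from cells without floxed alleles that received the drug, so what the drug or Cre does by itself cannot be told apart from the deletion. The labels do not say whether the 3 libraries of a group are separate cultures, and a p-value here measures the spread between these libraries, which may be technical.

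Wnt proteins are secreted lipid-modified ligands that bind Frizzled receptors together with the co-receptors Lrp5 or Lrp6. Without ligand, a complex built on Axin and Apc marks beta-catenin, the product of Ctnnb1, for destruction. With ligand, beta-catenin builds up, enters the nucleus and acts with factors of the Tcf/Lef family, of which Tcf7l2 is a member. Wnt5a acts mostly through other routes, among them planar cell polarity signalling through Ror receptors. In bone, Wnt signalling favours the osteoblast lineage, and human mutations of LRP5 are known to alter bone mass.

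Promoter sequences were looked up for the 10 genes in RefSeq, and 4 of the 10 matched (Sfrp2, Ctnnb1, Axin2 and Tcf7l2), with 6 windows of 250 bases upstream of a start site. The windows of Sfrp2 and Axin2 are shown because these were the most and the least abundant of the 10 messages, and a Ctnnb1 window because it holds the letters of a TATA box. All are given 5′ to 3′ on the plus strand of GRCm38.p6, and capitals mark these letters. Sfrp2 lies at chr3:83766071-83766320, Axin2 at chr11:108920099-108920348 and Ctnnb1 at chr9:120933328-120933577.
Sfrp2: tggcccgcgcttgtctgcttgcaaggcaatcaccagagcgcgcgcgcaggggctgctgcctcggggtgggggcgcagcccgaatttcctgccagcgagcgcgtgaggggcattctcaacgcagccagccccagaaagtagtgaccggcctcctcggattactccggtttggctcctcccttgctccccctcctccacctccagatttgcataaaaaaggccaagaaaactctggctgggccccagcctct
Axin2: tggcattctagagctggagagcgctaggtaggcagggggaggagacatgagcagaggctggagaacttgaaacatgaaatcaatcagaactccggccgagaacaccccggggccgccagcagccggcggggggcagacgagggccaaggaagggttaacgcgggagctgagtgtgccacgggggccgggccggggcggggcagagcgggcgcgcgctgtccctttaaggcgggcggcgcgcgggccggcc
Ctnnb1: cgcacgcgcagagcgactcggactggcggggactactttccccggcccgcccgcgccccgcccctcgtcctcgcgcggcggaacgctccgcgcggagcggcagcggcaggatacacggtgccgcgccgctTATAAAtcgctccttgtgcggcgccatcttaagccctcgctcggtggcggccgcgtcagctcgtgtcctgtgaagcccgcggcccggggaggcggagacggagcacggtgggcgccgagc
The core letters CTTTGA, bound by Tcf/Lef factors, were searched on both strands (TCAAAG on the other). They occurred in 0 of the 6 windows, against 13.8% of all 32851 mouse windows of the same length. The TATA box letters, TATAAA on either strand (TTTATA on the other), occurred in 2 of the 6 windows, 1 of Ctnnb1 and 1 of Tcf7l2, against 12.4% of all windows. They begin at base 131 of the Ctnnb1 window and base 9 of the Tcf7l2 window, away from the start site at the window's end. The 2 Ctnnb1 windows share bases. The strings CTTTGA and TATAAA do not overlap each other in sequence, and a match describes letters only.

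Levels are in counts per 1000000 reads (CPM), and a log2 change is a difference of group means of log2(CPM + 1), with a standard error (SE) that pools the spread of all 6 groups. The libraries hold 32.3 to 57.9 M reads (M for 1000000), at which 3 reads correspond to 0.0518 to 0.0930 CPM. The deleted gene, Prmt1, had 147, 176 and 173 CPM in Total RNA of knockout cells, against 256, 277 and 285 CPM in control cells. In Heavy RNA it had 64.4, 121 and 145 CPM in knockout libraries, against 412, 378 and 370.1 CPM in control libraries. Light RNA held 166, 229 and 235 CPM of Prmt1 in knockout libraries, against 255, 243 and 218 CPM in control libraries, and these ranges overlapped. The labels do not name the floxed exons, and reads from the remaining exons still count toward Prmt1. Reads from cells in which Prmt1 was not deleted would count as well, and the share of each was not tested. Knockout library 1 had the lowest Prmt1 level of the knockout libraries in each RNA. It also differed most from the other knockout libraries for several of the 10 genes. The part of its Prmt1 level in these values was not tested. Values without knockout library 1 are given where they bear on a result. In bulk RNA such as this, fewer cells of a type and less RNA per cell cannot be told apart.

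The osteoblast lineage markers were checked against the tissue label. Runx2, the lineage's master transcription factor, stood at 47.5 ± 3.76 CPM in Total RNA of knockout cells and 77.6 ± 6.25 CPM in control cells (SD, n = 3 each), and Col1a1 at 2632 ± 297.7 and 1828 ± 461 CPM in knockout and control cells. Of 12 osteoblast markers, 7 averaged at least 1 CPM in Total RNA of knockout cells and 8 in control cells, and bone sialoprotein (Ibsp) was under 0.1 CPM in every group. Summed over the 12, Total RNA held 4301 to 5349 CPM in knockout and 3230 to 4687 CPM in control libraries. Markers of other cell types also differed with genotype. In Total RNA the 7 epithelial markers summed to 7.23 to 10.3 CPM in knockout and 0.771 to 1.47 CPM in control libraries, mostly through Krt14, while Epcam was under 0.1 CPM in every group. The 7 endothelial markers summed to 3.66 to 3.80 CPM in knockout and 0.422 to 0.855 CPM in control libraries, with Tek and Emcn under 0.1 CPM in every group. The 9 macrophage markers summed to at least 16.5 CPM in each knockout library and at most 8.94 CPM in each control library, with Ptprc, Emr1, Itgam and Aif1 under 0.1 CPM in every group. The 5 chondrocyte markers in the table summed to 34.5 to 61.7 CPM in knockout and 26.3 to 34.0 CPM in control libraries, and the 8 adipocyte and muscle markers to 30.4 to 37.3 CPM in knockout and 41.2 to 44.1 CPM in control libraries. The part of these marker differences in the values below was not tested.

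The 10 messages spanned a wide range of abundance, compared here as CPM per kilobase of transcript in Total RNA. In knockout cells Sfrp2 led with 309.6 ± 124, followed by Ctnnb1 (143 ± 7.86), Lrp5 (10.8 ± 0.509), Lrp6 (7.68 ± 1.29) and Tcf7l2 (5.15 ± 0.251 CPM per kilobase, SD, n = 3). Sfrp1, Dkk3 and Wnt5a came next at 4.93 ± 3.11, 4.85 ± 1.58 and 3.75 ± 0.339, then Cthrc1 (0.457 ± 0.203) and Axin2 (0.0912 ± 0.0149). The library ranges of neighbours overlapped from Tcf7l2 through Sfrp1 and Dkk3 to Wnt5a, and lay apart elsewhere in this order. In control cells Sfrp2 (475 ± 153) and Ctnnb1 (107 ± 8.87) led as well, but Cthrc1 came next (6.80 ± 0.614) and Sfrp1 stood just above the last, Axin2, at 0.213 ± 0.0573. Between Cthrc1 and Sfrp1 came Lrp5 (6.63), Wnt5a (5.91), Lrp6 (5.73), Tcf7l2 (4.90) and Dkk3 (2.21), and Axin2 had 0.123. Control ranges of neighbours overlapped from Cthrc1 to Tcf7l2 and between Sfrp1 and Axin2.

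**Figure D1:**
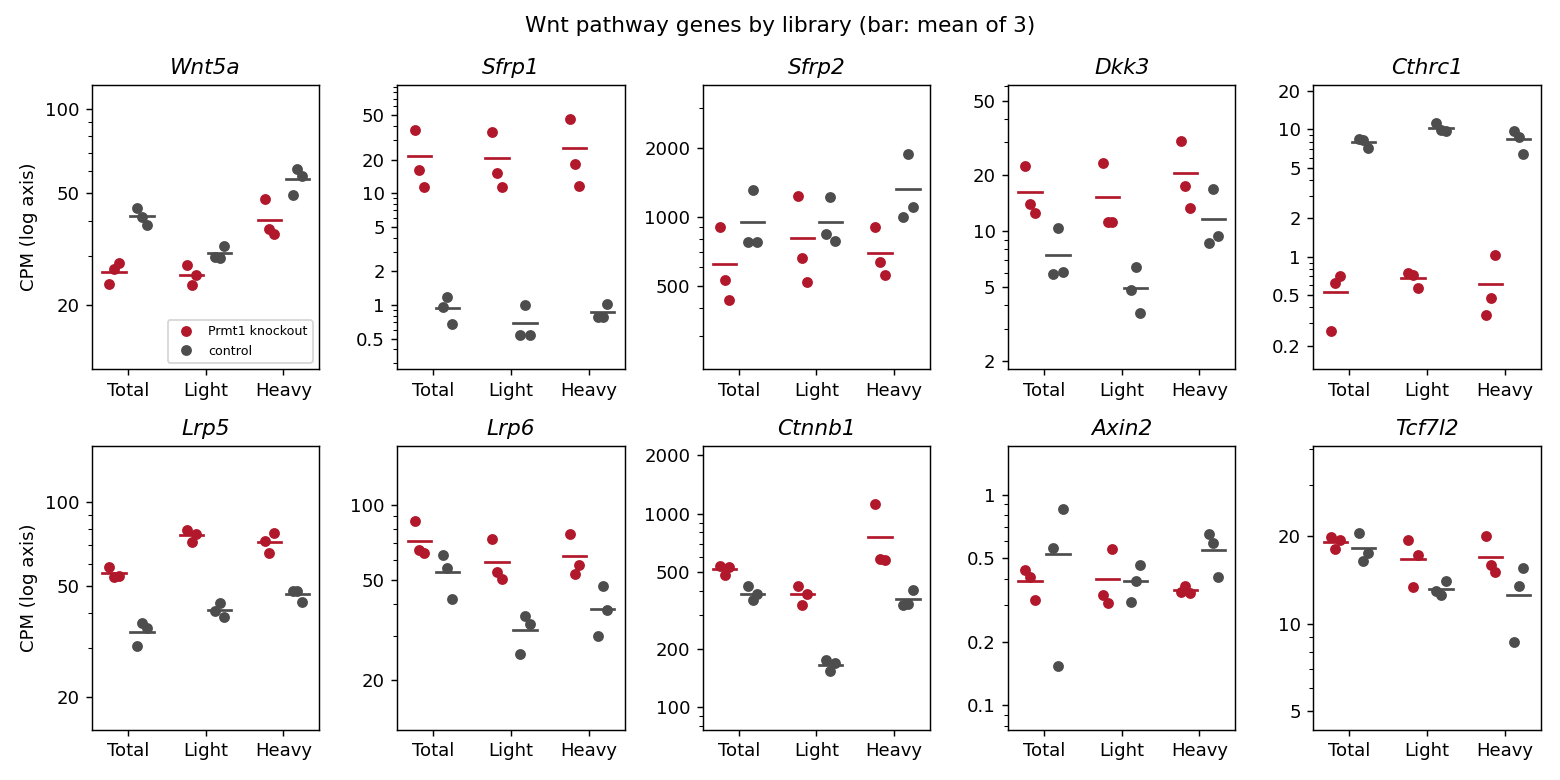
Level of each of the 10 genes in every library, in CPM on a log axis, for Total, Light and Heavy RNA; red points are Prmt1 knockout and grey points control libraries, and each bar is the mean of 3. Sfrp1 stands higher and Cthrc1 lower in every knockout library than in any control library of the same RNA, while Axin2 and Tcf7l2 show overlapping ranges in Total and Light RNA.

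Wnt5a (gene 22418, chromosome 14, 28504750 to 28527448 on the plus strand of mm10), the only ligand of the set, was lower in knockout cells. In Total RNA it had 23.7, 26.9 and 28.3 CPM in knockout libraries, against 44.3, 41.3 and 38.6 CPM in control libraries. Light RNA held 27.7, 23.6 and 25.6 CPM in knockout libraries, against 29.8, 29.4 and 32.5 CPM in control libraries. Heavy RNA held 47.9, 37.2 and 35.8 CPM in knockout libraries, against 49.5, 61.0 and 57.9 CPM in control libraries. The ranges did not overlap in any of the 3 RNAs, although in Heavy RNA knockout library 1 came close to control library 1. The log2 change was -0.64 in Total, -0.25 in Light and -0.47 in Heavy RNA (SE 0.12 each). Its exons overlap those of an antisense gene, Gm2670, over 358 bases, and no source used here states whether counting used strand.

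The secreted modulators held both extremes of the set. Sfrp1 (gene 20377, chromosome 8, 23411502 to 23449632, plus strand) encodes a secreted decoy that binds Wnt proteins through a Frizzled-like domain. In Total RNA its level was 37.0, 16.2 and 11.4 CPM in knockout libraries, against 0.957, 1.17 and 0.671 CPM in control libraries, which rest on 22 to 61 reads. In Light RNA it was 34.9, 15.2 and 11.3 CPM in knockout libraries, against 0.535, 1.00 and 0.543 CPM in control libraries. Heavy RNA held 46.5, 18.2 and 11.6 CPM in knockout libraries, against 0.779, 0.784 and 1.02 CPM in control libraries. Every knockout library was above every control library, and knockout library 1 was the highest in each RNA. The ratio of knockout to control means was 23.1 in Total, 29.5 in Light and 29.6 in Heavy RNA. On the log2(CPM + 1) scale the change was 3.39, 3.52 and 3.60 in Total, Light and Heavy RNA (SE 0.45 each), and 2.93, 3.07 and 3.07 without knockout library 1.

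Sfrp2 (gene 20319, chromosome 3, 83766321 to 83774316, plus strand), a relative of Sfrp1 with the same kind of Wnt-binding domain, averaged lower in knockout cells in each RNA, with overlapping ranges in 2 of 3. In Total RNA it had 900.3, 529 and 431 CPM in knockout libraries, against 773, 1306 and 778 CPM in control libraries. In Light RNA it had 1240.5, 661 and 517 CPM in knockout libraries, against 839.9, 1222 and 781 CPM in control libraries. Heavy RNA held 899.9, 634 and 557 CPM in knockout libraries, against 995, 1895 and 1100.0 CPM in control libraries, the only RNA in which the ranges stood apart. Knockout library 1 and control library 2 were the highest of their groups in each RNA. The log2 change was -0.64, -0.31 and -0.90 in Total, Light and Heavy RNA (SE 0.35 each). It depended on single libraries: without knockout library 1 it was -0.95, -0.67 and -1.10, and without control library 2 it was -0.39, -0.11 and -0.62. The Light value was -0.04 without knockout library 3. An antisense gene, Gm26771, overlaps 347 bases of its exons.

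Dkk3 (gene 50781, chromosome 7, 112116017 to 112159057, minus strand) encodes a secreted protein of the Dickkopf family that diverges from the classical inhibitors of Lrp5 and Lrp6. In Total RNA it had 22.3, 14.0 and 12.5 CPM in knockout libraries, against 5.90, 10.4 and 6.01 CPM in control libraries. Light RNA held 23.3, 11.2 and 11.2 CPM in knockout libraries, against 4.83, 6.42 and 3.65 CPM in control libraries. Heavy RNA held 30.5, 17.4 and 13.4 CPM in knockout libraries, against 8.67, 16.8 and 9.46 CPM in control libraries. Knockout libraries were above control libraries in Total and Light RNA, and in Heavy RNA the ranges overlapped through control library 2. The log2 change was 1.03, 1.39 and 0.74 in Total, Light and Heavy RNA (SE 0.34 each). In Heavy RNA it was 0.42 without knockout library 1 and 1.01 without control library 2.

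Cthrc1 (gene 68588, chromosome 15, 39076932 to 39087121, plus strand), a secreted glycoprotein with a collagen repeat that favours planar polarity over beta-catenin signalling, was far lower in knockout cells. In Total RNA it had 0.264, 0.625 and 0.709 CPM in knockout libraries, which rest on 9 to 29 reads, against 8.45, 8.21 and 7.11 CPM in control libraries. In Light RNA it had 0.749, 0.724 and 0.572 CPM in knockout libraries, against 11.1, 9.85 and 9.70 CPM in control libraries. Heavy RNA held 0.346, 0.475 and 1.02 CPM in knockout libraries, against 9.75, 8.76 and 6.45 CPM in control libraries. No knockout library came near the lowest control library, and knockout means were 0.0672, 0.0667 and 0.0739 of the control means in Total, Light and Heavy RNA. The log2(CPM + 1) change was -2.55, -2.74 and -2.53 (SE 0.17 each). With a pseudocount of 0.1 CPM in place of 1 it was -3.74, -3.73 and -3.65, because low levels are compressed by the larger pseudocount.

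Both co-receptors were higher in knockout cells. Lrp5 (gene 16973, chromosome 19, 3584828 to 3686564, minus strand) had 58.6, 53.7 and 54.5 CPM in Total RNA of knockout libraries, against 30.5, 36.7 and 35.3 CPM in control libraries. Light RNA held 79.7, 71.8 and 77.0 CPM in knockout libraries, against 40.8, 43.3 and 38.8 CPM in control libraries. In Heavy RNA it had 72.7, 65.4 and 77.2 CPM in knockout libraries, against 48.1, 47.9 and 43.8 CPM in control libraries. The Lrp5 ranges were well apart in all 3 RNAs, and its log2 change of 0.69, 0.88 and 0.61 in Total, Light and Heavy RNA had the smallest SE of the 10 genes (0.10). Lrp6 (gene 16974, chromosome 6, 134446476 to 134566965, minus strand) had 85.8, 66.1 and 63.9 CPM in Total RNA of knockout libraries, against 62.8, 55.9 and 42.2 CPM in control libraries. Light RNA held 72.6, 53.7 and 50.6 CPM of Lrp6 in knockout libraries, against 25.4, 36.0 and 33.5 CPM in control libraries. Heavy RNA held 76.6, 52.7 and 57.3 CPM in knockout libraries, against 29.8, 47.5 and 38.0 CPM in control libraries. The Lrp6 ranges did not overlap in any RNA but lay closer, and its log2 change was 0.42, 0.88 and 0.69 (SE 0.21 each). In Total RNA the Lrp6 change was 0.29 without knockout library 1 and 0.26 without control library 3.

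Ctnnb1 (gene 12387, chromosome 9, 120929216 to 120960507, plus strand), which encodes beta-catenin, was also higher in knockout cells, more so in the gradient fractions than in Total RNA. In Total RNA it had 535, 484 and 532 CPM in knockout libraries, against 420.0, 356 and 383 CPM in control libraries. In Light RNA it had 424, 339 and 384 CPM in knockout libraries, against 175, 153 and 169.5 CPM in control libraries. In Heavy RNA it had 1124, 582 and 577 CPM in knockout libraries, against 336, 339 and 404 CPM in control libraries. The ranges stood apart in each RNA, and the Heavy value of knockout library 1 was far above those of the other knockout libraries. The log2 change was 0.42 in Total, 1.20 in Light and 1.01 in Heavy RNA (SE 0.19 each), and the Heavy change was 0.69 without knockout library 1. The exons of Ulk4 overlap those of Ctnnb1 on the opposite strand over 759 bases, but Ulk4 averaged 0.730 to 1.61 CPM over the 6 groups.

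Axin2 (gene 12006, chromosome 11, 108920349 to 108950783, plus strand), a scaffold of the destruction complex and the best known feedback target of beta-catenin, was barely present. Total RNA held 0.440, 0.409 and 0.318 CPM in knockout libraries, against 0.558, 0.153 and 0.855 CPM in control libraries, counts of 8 to 28 reads. Light RNA held 0.335, 0.306 and 0.552 CPM in knockout libraries, against 0.311, 0.388 and 0.465 CPM in control libraries. In Heavy RNA it had 0.346, 0.369 and 0.341 CPM in knockout libraries, against 0.653, 0.588 and 0.407 CPM in control libraries. The ranges overlapped in Total and Light RNA and stood narrowly apart in Heavy RNA, with knockout libraries lower. The log2(CPM + 1) change was -0.11, 0.01 and -0.19 (SE 0.12 each) in Total, Light and Heavy RNA, and under quantile normalization the Light value was -0.14. At these low levels a pseudocount of 1 CPM compresses changes. With a pseudocount of 0.1 CPM the Heavy value was -0.50, and with voom -0.75. In Total RNA the log2(CPM + 1) change was -0.29 without control library 2 and 0.05 without control library 3. In Light RNA it lay between -0.07 and 0.05 when 1 library was left out. Tcf7l2 (gene 21416, chromosome 19, 55741820 to 55933654, plus strand) overlapped between the groups in every RNA. It had 19.9, 18.1 and 19.4 CPM in Total RNA of knockout libraries, against 20.5, 16.5 and 17.5 CPM in control libraries. Light RNA held 19.5, 13.4 and 17.2 CPM in knockout libraries, against 13.0, 12.6 and 14.1 CPM in control libraries, and Heavy RNA 20.2, 15.9 and 15.1 CPM in knockout libraries, against 8.64, 13.5 and 15.6 CPM in control libraries. Its log2 change was 0.07, 0.30 and 0.44 (SE 0.18 each) in Total, Light and Heavy RNA. Single libraries moved it: the Total value was 0.01 without control library 2 and 0.16 without control library 1, the Light value 0.19 without knockout library 1, and the Heavy value 0.21 without control library 1.

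**Figure D2:**
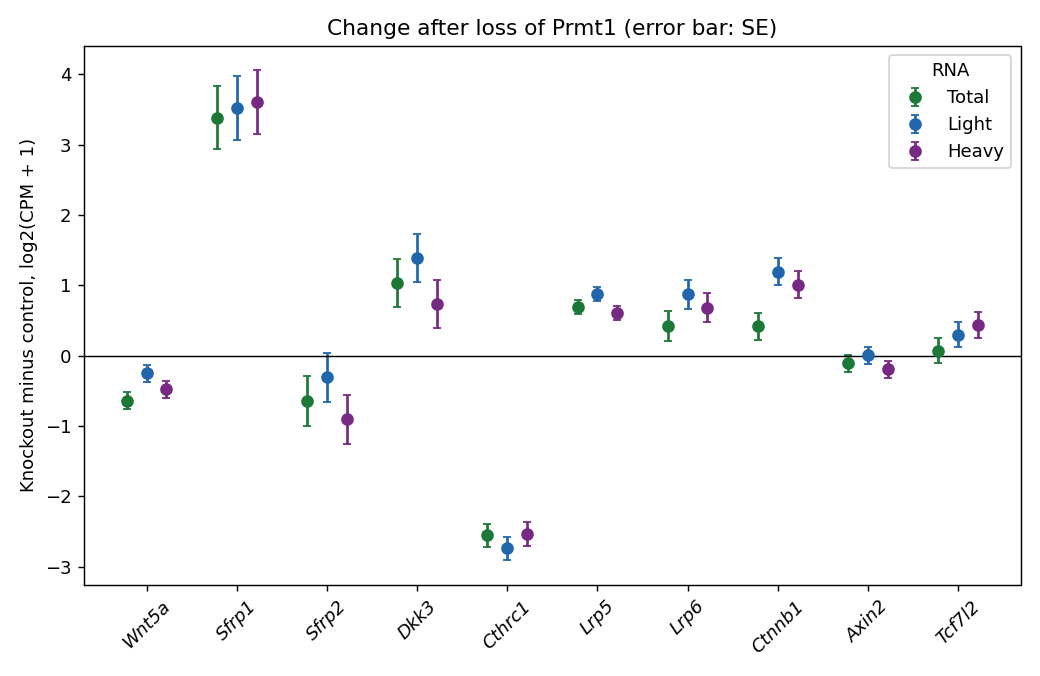
Knockout minus control difference of mean log2(CPM + 1) for each of the 10 genes in Total (green), Light (blue) and Heavy (purple) RNA, with the SE as error bar. Sfrp1 lies at 3.39 to 3.60 and Cthrc1 at -2.74 to -2.53, while the other genes lie between -0.90 and 1.39.

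Set against all genes, the 10 were counted as follows. In Total RNA, knockout and control ranges did not overlap for 7 of the 10 (5 with knockout higher, 2 lower), against 44.5% of the 17515 genes tested. In Light RNA they did not overlap for 7 of the 10 (5 higher, 2 lower), against 50.6% of genes, and in Heavy RNA for 8 of the 10 (4 higher, 4 lower), against 37.9%. At a limma adjusted p under 0.05 over all genes, 3 members would be called higher and 2 lower in Total RNA, where 16.1% of all genes were called higher and 10.3% lower. In Light RNA it was 5 higher and 1 lower, where 26.8% of all genes were called higher and 12.7% lower, and in Heavy RNA 4 higher and 2 lower, where 18.5% were called higher and 10.4% lower. Because the members were chosen on this contrast, nothing is read from these counts. Their median log2 change was 0.25 in Total, 0.59 in Light and 0.52 in Heavy RNA, beside 0.01, 0.05 and 0.02 over all genes tested.

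The median Light change over all genes depended on the scaling. Over the 11602 genes that averaged 1 CPM or more, the median knockout minus control log2 change in Light RNA was 0.14 as deposited, -0.02 after quantile normalization and -0.06 after median-of-ratios scaling. Relative to the deposited median, the Light change was 3.38 for Sfrp1, 1.25 for Dkk3, 1.05 for Ctnnb1, 0.74 for Lrp5, 0.73 for Lrp6 and 0.16 for Tcf7l2. It was -0.14 for Axin2, -0.39 for Wnt5a, -0.45 for Sfrp2 and -2.88 for Cthrc1. The Light change also moved with coding length over all genes, with a median of -0.32 among the shortest of 5 equal groups of genes (111 to 744 bases) and 0.39 among the longest (2514 to 26397 bases). Lrp5 and Lrp6, with 4842 and 4839 coding bases, belong to the longest group. Ctnnb1 and Tcf7l2 belong to the next longest, whose median was 0.29, Wnt5a, Sfrp1, Sfrp2 and Dkk3 to the next shortest, at 0.06, and Cthrc1 to the shortest. In Heavy RNA the medians ran over -0.13, -0.10, 0.01, 0.12 and 0.36 for the same groups, shortest to longest, and in Total RNA over -0.07, -0.03, 0.00, -0.01 and 0.04. The part of coding length in the members' values was not tested.

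A second comparison asked which of the 10 messages made up more of the Heavy than of the Light RNA within each genotype. This contrast between fractions is not the one the genes were chosen on, but it uses libraries whose levels were known at the choice. It was tested with limma over all genes, and its p-values are not independent evidence. A share of Heavy RNA is not a rate of translation. In knockout cells 2 of the 10 were called higher in Heavy RNA and 0 lower, against 16.8% higher and 26.8% lower among all genes. In control cells 3 of the 10 were called higher in Heavy RNA and 0 lower, against 23.6% higher and 27.1% lower among all genes. Regardless of the test, Heavy means exceeded Light means for 6 of 10 messages in knockout and 8 of 10 in control cells. These include near ties, such as Tcf7l2 in knockout cells (17.1 CPM in Heavy and 16.7 CPM in Light RNA). Over all genes tested, the median Heavy minus Light log2 difference was -0.02 in knockout and -0.01 in control cells. Among genes averaging 1 CPM or more it was -0.02 in knockout and 0.06 in control cells. The share of all genes with Heavy above Light means was not counted.

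Ctnnb1 and Wnt5a leaned to Heavy RNA in both genotypes. The Heavy minus Light log2 difference of Ctnnb1 was 0.92 in knockout cells (SE 0.19, limma adjusted p = 0.000897, and 7.19e-05 to 0.0421 among the settings tried) and 1.11 in control cells (adjusted p = 0.000109, and 7.14e-06 to 0.00100 among them). By library number it was 1.41, 0.78 and 0.59 in knockout and 0.94, 1.15 and 1.25 in control cells, thus higher in Heavy RNA in 6 of 6 pairs. Without knockout library 1 of every RNA the knockout value of Ctnnb1 was 0.68. For Wnt5a the difference was 0.62 in knockout cells (SE 0.12, limma adjusted p = 0.000493, range 4.21e-05 to 0.0262) and 0.85 in control cells (adjusted p = 1.39e-05, range 1.28e-06 to 0.000238). Its pairs gave 0.77, 0.63 and 0.47 in knockout and 0.72, 1.03 and 0.81 in control cells, all 6 toward Heavy.

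Dkk3 leaned to Heavy RNA in control cells, by 1.05 (SE 0.34, limma adjusted p = 0.0167), and in knockout cells the difference was 0.40 (adjusted p = 0.381). The control call was lost without control Heavy library 2 (0.78, adjusted p = 0.0974) or control Light library 3 (0.89, adjusted p = 0.0733), and its adjusted p ran over 7.87e-06 to 0.0974 among the settings tried. Heavy and Light libraries of the same number deviated together from their group means, so a fit with library number as a block was also tried. That fit also holds the Total libraries, which in control cells did not pair by number. With the block, Dkk3 in knockout cells passed (0.40, limma adjusted p = 0.0149, and 0.0149 to 0.890 among the settings tried), and its pairs were 0.38, 0.59 and 0.24. Sfrp2 in control cells passed as well with the block (0.46, limma adjusted p = 0.00452, against 0.321 without it and up to 0.791 among the settings tried), and its pairs were 0.24, 0.63 and 0.49. In knockout cells the pairs of Sfrp2 were -0.46, -0.06 and 0.11, on both sides of 0, with a difference of -0.14 (limma adjusted p = 0.796).

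The remaining 6 messages did not pass in either genotype, with limma adjusted p of 0.521 to 0.910 in knockout and 0.135 to 0.855 in control cells. Their Heavy minus Light log2 differences in knockout cells were 0.23 for Sfrp1, 0.08 for Lrp6, 0.03 for Tcf7l2, -0.04 for Axin2, -0.08 for Cthrc1 and -0.09 for Lrp5. In control cells they were 0.14 for Sfrp1, 0.26 for Lrp6, -0.10 for Tcf7l2, 0.16 for Axin2, -0.28 for Cthrc1 and 0.18 for Lrp5. After quantile normalization Lrp5 (0.26, limma adjusted p = 0.0440) and Axin2 (0.40, adjusted p = 0.00877) passed in control cells, where their adjusted p reached 0.333 and 0.600 among the other settings. That scaling gave a median Heavy minus Light difference, over genes averaging 1 CPM or more, of 0.16 in knockout and 0.19 in control cells, where the deposited values gave -0.02 in knockout and 0.06 in control cells.

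**Figure D3:**
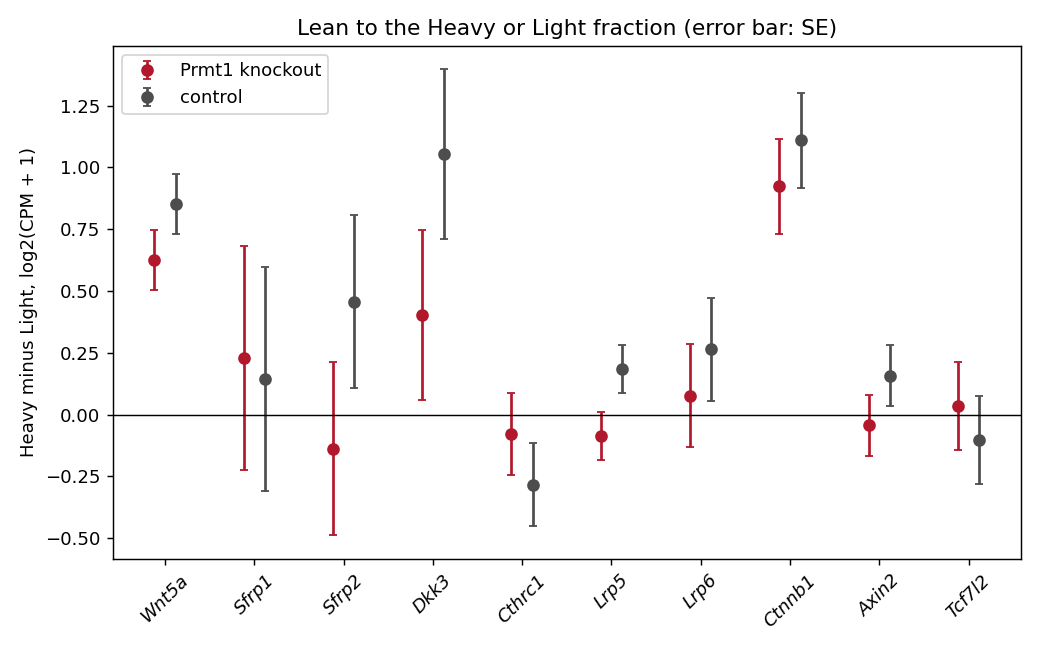
Heavy minus Light difference of mean log2(CPM + 1) for each of the 10 genes in Prmt1 knockout (red, left) and control cells (grey, right), with the SE as error bar. Ctnnb1 (0.92 in knockout and 1.11 in control cells) and Wnt5a (0.62 and 0.85) lie above 0 in both, and Dkk3 lies at 0.40 in knockout and 1.05 in control cells.

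The change of the Heavy over Light difference with genotype is the interaction of the 2 factors. It shares its libraries with the contrast on which the 10 were chosen and is described without a test. It was negative for 7 of the 10, from -0.65 for Dkk3 (SE 0.49), -0.60 for Sfrp2 (SE 0.50), -0.27 for Lrp5 (SE 0.14) and -0.23 for Wnt5a (SE 0.17) to -0.20 for Axin2, -0.19 for Lrp6 and -0.19 for Ctnnb1. It was positive for Sfrp1 (0.08), Tcf7l2 (0.14) and Cthrc1 (0.20), although leaving out 1 library at a time gave -0.45 to 0.53 for Sfrp1 and -0.09 to 0.30 for Tcf7l2. With a pseudocount of 0.1 CPM the Axin2 shift was -0.51, and with voom -0.56. Over all genes tested the median shift was -0.02, and over those averaging 1 CPM or more it was -0.06. None of the 10 would be called by limma without the block, where 0.354% of all genes were called higher and 2.52% lower. With genotype and library number as a block the shifts stayed at the same values, and the SE became 0.17 for Dkk3, 0.16 for Sfrp2 and 0.13 for Lrp5. None of the 10 would be called there either, where 0.474% of all genes were called higher and 3.34% lower. By library number, the Heavy minus Light differences of knockout and control pairs did not overlap for 4 of the 10, against 26% of all genes. These were Dkk3 (0.24 to 0.59 in knockout and 0.73 to 1.26 in control cells), Sfrp2 (-0.46 to 0.11 in knockout and 0.24 to 0.63 in control cells), Lrp5 (-0.13 to 0.00 in knockout and 0.14 to 0.23 in control cells) and, narrowly, Lrp6 (-0.03 to 0.175 in knockout and 0.178 to 0.39 in control cells).

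The rest of the pathway was taken from a list of 123 further Wnt genes, ordered by role. The list was drawn up with earlier results of these data known, so its p-values are not independent evidence. Of these 119 were in the table and 109 passed the filter on low values. Wnt10a, Dkk1, Sostdc1 and Fzd10 were not analysed here. In Total RNA 21 of the 109 rose and 12 fell in knockout cells by limma at an adjusted p under 0.05, with a median log2 change of 0.03, beside 0.01 over all genes. In Light RNA 36 rose and 12 fell (median 0.10, beside 0.05), and in Heavy RNA 22 rose and 10 fell (median 0.07, beside 0.02). These shares stand beside the 16.1% higher and 10.3% lower (Total), 26.8% and 12.7% (Light) and 18.5% and 10.4% (Heavy) of all genes. The balance of directions depended on the scaling. With voom on the recovered reads and median-of-ratios scaling, 18 were higher and 14 lower in Total, 25 and 25 in Light, and 19 and 17 in Heavy RNA. Under quantile normalization, 16 were higher and 13 lower in Total, 24 and 21 in Light, and 18 and 14 in Heavy RNA. Without the knockout libraries numbered 1, the counts were 23 higher and 16 lower in Total, 39 and 14 in Light, and 30 and 12 in Heavy RNA.

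The counts by role below stand beside the shares of all genes given above, and no role was tested as a set. By role, the ligands were split, with 4 of 13 higher and 2 lower in Total RNA. Among the higher ligands, Wnt6 (0.0846 CPM in knockout and 0 in control cells), Wnt7a (0.321 and 0.0128) and Wnt7b (0.162 and 0.0266) lay near 0 CPM. The other, Wnt9a, averaged 5.33 CPM in knockout and 2.72 CPM in control cells. Wnt10b, a ligand that favours bone formation, fell to 6.20 ± 0.911 CPM in Total RNA of knockout cells, against 12.7 ± 0.765 CPM in control cells (log2 change -0.93, SE 0.23, limma adjusted p = 0.00719). In Light RNA it fell to 7.93 ± 3.13 CPM in knockout cells, against 14.0 ± 0.735 CPM in control cells (-0.81, adjusted p = 0.0111), and Wnt2, another ligand, to 5.59 ± 3.32 CPM in knockout cells, against 15.6 ± 1.36 CPM in control cells (-1.50, adjusted p = 0.0137). Both Light calls were lost without knockout Light library 1, at -0.52 (adjusted p = 0.0699) for Wnt10b and -0.96 (adjusted p = 0.0887) for Wnt2, but with knockout library 1 left out of all 3 RNAs these same changes passed (adjusted p = 0.0178 for Wnt10b and 5.1e-05 for Wnt2). Over all settings the adjusted p ran over 0.000447 to 0.0699 for Wnt10b and 5.1e-05 to 0.0887 for Wnt2. Of the other secreted modulators, 1 of 8 was higher and 2 were lower in each RNA. The higher one was Rspo1 in Total RNA (0.562 CPM in knockout and 0.255 in control cells) and in Light RNA (0.360 and 0.122), both low levels. Notum, an extracellular enzyme that inactivates Wnt proteins by removing their lipid, fell to 2.11 ± 0.310 CPM in Total RNA of knockout cells, against 9.14 ± 2.03 CPM in control cells (-1.69, SE 0.18, limma adjusted p = 4.36e-06). In Heavy RNA Notum fell to 2.42 ± 0.305 CPM in knockout cells, against 14.0 ± 3.36 CPM in control cells (-2.11, adjusted p = 4.06e-07).

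Among 21 other receptors and co-receptors, 1 was higher and 2 lower in Total, 5 higher and 2 lower in Light, and 3 higher and 2 lower in Heavy RNA. Lrp4, a relative of Lrp5 and Lrp6 that binds the Wnt inhibitor sclerostin, rose to 13.9 ± 1.86 CPM in Total RNA of knockout cells, against 6.35 ± 0.741 CPM in control cells (1.02, SE 0.14, limma adjusted p = 5.09e-05). It also rose in Light (1.30, adjusted p = 2.75e-06) and Heavy RNA (1.45, adjusted p = 1.31e-06). Fzd6, a Frizzled receptor, fell to 30.9 ± 3.63 CPM in Heavy RNA of knockout cells, against 56.2 ± 6.22 CPM in control cells (-0.84, SE 0.11, limma adjusted p = 3.13e-05). Of 25 cytoplasmic components 5 rose and 1 fell in Total, 10 rose and 2 fell in Light, and 5 rose and 1 fell in Heavy RNA. Dact2, a Dishevelled-binding protein, rose to 16.4 ± 2.36 CPM in Total RNA of knockout cells, against 5.29 ± 1.05 CPM in control cells (1.47, SE 0.19, limma adjusted p = 2.63e-05), and by 1.62 in Light and 1.68 in Heavy RNA. The Dishevelled genes, whose products relay the signal from Frizzled, did not move together. In Total RNA the log2 change was 0.51 for Dvl2 (limma adjusted p = 0.0308), -0.70 for Dvl3 (adjusted p = 0.00127) and -0.23 for Dvl1 (adjusted p = 0.199). Dvl2 rose to 67.2 ± 5.35 CPM in Light RNA of knockout cells, against 27.4 ± 1.67 CPM in control cells (1.26, SE 0.16, limma adjusted p = 1.94e-05), while Dvl3 fell to 21.4 ± 4.52 CPM in Heavy RNA of knockout cells, against 39.8 ± 2.63 CPM in control cells (-0.88, SE 0.14, adjusted p = 0.000156). The exons of Dvl2 overlap those of Acadvl on the opposite strand over 1151 bases.

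Of 9 planar polarity genes 5 were higher and 0 lower in Total, 4 and 0 in Light, and 3 and 0 in Heavy RNA. Among all genes 16.1% were higher and 10.3% lower in Total, 26.8% and 12.7% in Light, and 18.5% and 10.4% in Heavy RNA. Nothing particular to the planar polarity genes is read from counts this small. Those higher in Total RNA include Celsr1 (0.329 CPM in knockout and 0.0623 in control cells) and Celsr3 (0.432 and 0.173), both at low levels. Of 18 nuclear factors 2 were higher and 3 lower in Total, 6 and 1 in Light, and 6 and 2 in Heavy RNA. Tle1, a co-repressor that binds Tcf/Lef factors, fell to 15.1 ± 1.50 CPM in Total RNA of knockout cells, against 27.7 ± 0.617 CPM in control cells (-0.84, SE 0.13, limma adjusted p = 0.000184), and by 0.78 on the log2 scale in Light RNA. Ep300, a histone acetyltransferase that works with beta-catenin, rose to 16.9 ± 5.03 CPM in Heavy RNA of knockout cells, against 7.73 ± 2.25 CPM in control cells (1.03, SE 0.22, limma adjusted p = 0.00190). This adjusted p reached 0.0495 among the settings tried. In Total RNA Ep300 was not called, with 35.4 ± 2.02 CPM in knockout and 31.8 ± 2.95 CPM in control cells (0.15, limma adjusted p = 0.670). Reported targets of the pathway went both ways, with 3 of 13 higher and 2 lower in Total, 5 and 2 in Light, and 2 and 2 in Heavy RNA. Ccnd1, the cell cycle regulator cyclin D1, rose to 234 ± 61.5 CPM in Total RNA of knockout cells, against 127 ± 3.40 CPM in control cells (0.84, SE 0.19, limma adjusted p = 0.00344), and its exons overlap 1100 bases of LTO1 on the opposite strand. Jun, a transcription factor of the AP-1 complex, rose to 100.2 ± 7.58 CPM in Total RNA of knockout cells, against 54.0 ± 4.49 CPM in control cells (0.88, SE 0.13, limma adjusted p = 8.77e-05). Bambi, a membrane protein that dampens TGF-beta signalling, fell to 9.92 ± 0.363 CPM in Total RNA of knockout cells, against 25.6 ± 1.53 CPM in control cells (-1.28, SE 0.14, limma adjusted p = 4.04e-06). Bambi also fell in Light (-1.58) and Heavy RNA (-1.43).

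**Figure D4:**
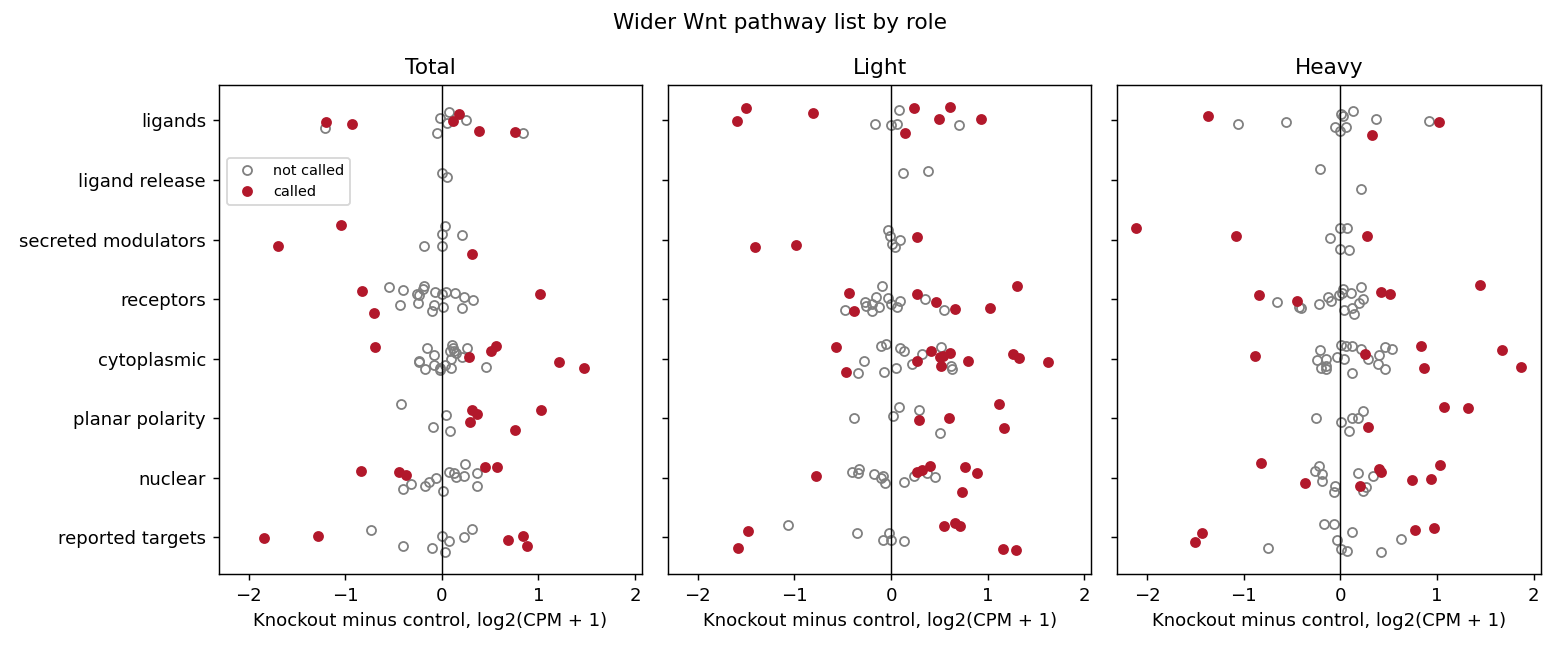
Knockout minus control difference of mean log2(CPM + 1) for the 109 further Wnt pathway genes tested, by role, in Total, Light and Heavy RNA; filled red points passed limma at an adjusted p under 0.05 and open grey points did not, and the vertical position within a role is only spread for legibility. In Total RNA 21 red points lie right of 0 and 12 left of it, in Light RNA 36 and 12, and in Heavy RNA 22 and 10.

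Genes whose levels ran most like those of the 4 most variable members were found by Pearson correlation of log2(CPM + 1) over the 18 libraries, among the 9651 genes that averaged 5 CPM or more. The libraries share genotype, fraction and depth, so the values only describe likeness. Nearest to Sfrp1 were Ugt1a5, Ugt1a2 and Ugt1a10 (0.989 each), glucuronosyltransferase genes that share exons and had nearly the same values, with 38.8 CPM in Total RNA of knockout cells and 5.32 CPM in control cells. For Cthrc1 they were Cox18 (0.980), Igfbp7 (0.974) and Glis1 (0.974), of which Igfbp7 averaged 16.6 CPM in Total RNA of knockout cells and 114 CPM in control cells. Ctnnb1 ran most like Tns3 (0.985), Kdm4a (0.985) and 3110002H16Rik (0.984), and Kdm4a averaged 71.5 CPM in Light RNA of knockout cells and 34.6 CPM in control cells. For Dkk3 they were Cpxm1 (0.971), Pltp (0.966) and Igfbp3 (0.965), and Cpxm1 averaged 65.3 CPM in Total RNA of knockout cells and 25.3 CPM in control cells. Igfbp7 shares exonic bases with Polr2b (85 bases) and Pltp with Ctsa (495 bases), each on the opposite strand.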

How the data were processed

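RNA of murine osteosarcoma cells was sequenced in 6 groups of 3 libraries: Total, Light and Heavy RNA of Prmt1 knockout and control cells. The authors deposited a single table of log2(CPM + 1) values for 19862 genes and 18 libraries; per the submitters' processing notes, STAR, edgeR and the build mm10 were used, with no versions given. With the log undone and scaled to reads, 100% of values came out whole (tolerance 0.1). The counter and its strand setting are not stated in the labels.

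Genes above 0 in at least 3 libraries (17515) were fitted with limma 3.58.1 in R 4.3.3, with a mean-variance trend, robust variances and 6 group means, and p-values were adjusted by Benjamini-Hochberg over all genes tested, with a call under 0.05. SDs are per group. The script was tested on simulated data. The 10 members, the wider list and the markers were chosen with earlier results of these data known. From the wider list the text names the 4 highest and 4 lowest called genes that average 5 CPM or more in each RNA, and every such gene called in the Heavy over Light shift. It also names the 3 genes most correlated with each of the 4 members of widest range.

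Library numbers were checked as pairs by correlating deviations from group means. Heavy and Light libraries of the same number deviated together, at 0.263 to 0.641 in knockout and 0.368 to 0.471 in control cells. The pairing thus comes from the data, and number was used there as a block. Knockout Heavy library 3 nonetheless correlated more with Light library 2 (0.545) than with Light library 3 (0.263). The block fit of Heavy against Light also kept the Total libraries in these blocks. In control cells Total libraries did not pair by number (-0.681 to 0.383 with Light and -0.506 to 0.157 with Heavy). In knockout cells these values were 0.461 to 0.648 and 0.030 to 0.535. Knockout and control libraries of a number did not pair (-0.487 to 0.602). Gene positions and lengths come from GENCODE (GRCm38, the same assembly as mm10), and promoters from RefSeq (GRCm38.p6). Alternatives were quantile normalization, a filter of at least 1 CPM or none, a pseudocount of 0.1 CPM, fits of a comparison's own libraries, limma with no trend, voom on recovered reads, the replicate block, and leaving out libraries. Python 3.11.15 with numpy 2.4.6, pandas 2.3.3 and matplotlib 3.10.9 was used. Raw reads were not analysed here.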

Additional observations from a re-analysis of the deposited data

Results flagged for a closer look

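Of the 109 further Wnt pathway genes, 2 were called in the test of the interaction, which asks whether the knockout effect differs between Heavy and Light RNA. Ptk7, a co-receptor-like pseudokinase of the planar polarity branch, averaged 227 ± 31.5 CPM in Heavy RNA of knockout cells and 192 ± 7.74 CPM in control cells, and 166 ± 12.7 CPM in Light RNA of knockout cells and 80.8 ± 7.18 CPM in control cells. Its Heavy over Light shift, knockout minus control, was -0.79 on the log2 scale (SE 0.16, limma adjusted p = 0.0221). Vangl1, a core planar polarity membrane protein, averaged 43.8 ± 1.99 CPM in Heavy RNA of knockout cells and 40.0 ± 1.02 CPM in control cells, and 45.1 ± 2.10 CPM in Light RNA of knockout cells and 29.3 ± 1.54 CPM in control cells, a shift of -0.48 (SE 0.12, adjusted p = 0.0370). Of 21 alternatives, the Ptk7 call was lost in 8 (adjusted p of 0.00403 to 0.115) and the Vangl1 call in 14 (0.00548 to 0.212). Over all genes, 0.354% were called higher and 2.52% lower in this shift, so nothing particular to the pathway list is read from the 2 calls.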

How the results depend on the processing

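The direction of every called Heavy minus Light difference of the 10 genes held under the alternatives tried, and so did the calls of Ctnnb1 and Wnt5a, but not that of Dkk3 in control cells. Counts of called genes moved by over 1.5 times as follows, and the cause was not tested. Under quantile normalization 21 pathway genes were lower in Light RNA (12 as reported), 5 of the 10 genes were called Heavy against Light in control cells (3 as reported), and 1 pathway gene was called in the Heavy over Light shift (2 as reported). With the filter of at least 1 CPM, which tests fewer genes, 13 pathway genes were higher in Total RNA (21 as reported). It leaves out Wnt6, Wnt7a, Wnt7b, Rspo1, Celsr1, Celsr3, Frat1 and Pygo1, which were called higher in Total RNA. Those genes averaged 0.0327 to 0.281 CPM over the 18 libraries. With a pseudocount of 0.1 CPM 1 gene was called in the shift. With the libraries of a comparison alone, 13 were higher in Heavy RNA (22 as reported) and 0 were called in the shift. With voom, 25 were lower in Light, 17 lower in Heavy (10 as reported) and 0 called in the shift. Leaving out 1 library at a time gave 0 to 7 shift calls, with 7 lacking knockout Heavy library 1, and leaving out all knockout libraries numbered 1 gave 9.

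Among the Heavy minus Light differences of the 10 genes, those that changed sign were uncalled and near 0. Untested values near 0 changed sign too, namely the knockout minus control value of Axin2 in Total and Light RNA (in Light -0.14 under quantile normalization and -0.18 with voom) and the Heavy over Light shifts of Sfrp1 and Tcf7l2. Under quantile normalization the knockout values were 0.11 for Cthrc1, 0.0728 for Lrp5 and 0.11 for Axin2, and with voom 0.0022 for Sfrp2, 0.0536 for Lrp5 and 0.0087 for Axin2. Without the knockout libraries numbered 1 they were 0.0237 for Sfrp2 and 0.0694 for Cthrc1. Leaving out 1 library at a time, the knockout value ran over -0.31 to 0.68 for Sfrp1, -0.41 to 0.22 for Sfrp2, -0.25 to 0.0404 for Cthrc1, -0.0822 to 0.23 for Lrp6, -0.0904 to 0.0341 for Axin2 and -0.11 to 0.15 for Tcf7l2. The control value ran over -0.27 to 0.13 for Tcf7l2.

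With the replicate block, 3 pathway genes were called in the shift, 22 higher and 13 lower in Total, 39 and 13 in Light, and 24 and 14 in Heavy RNA. Knockout and control libraries share only a number, and among the genes named in the text the block changed no other call than those given for Dkk3 and Sfrp2. Axin2 and the low groups of Sfrp1 and Cthrc1 rest on few reads, which limits their precision.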
